A study of Rattus norvegicus with 12 samples.

Results

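The 10 genes Cd68, Aif1, Itgam, Csf1r, Mrc1, Adgre1, Arg1, Msr1, P2ry12 and Tmem119 mark macrophages and microglia, and their RNA was followed in rats injected with a myelin peptide, in the sciatic nerve, in dorsal root ganglia (DRG) and in dorsal spinal cord. They were chosen by name, with earlier results of these data known. A probe belonged to a gene when the RefSeq accession printed beside it in the scanner output was one of that gene. This found 10 of 10 genes, with 13 of 30367 probes, among 15159 genes that could be named in this way. Aif1, Csf1r and Tmem119 had 2 probes each, and the one with the higher mean over the 12 arrays was used, called the brighter one below. For Tmem119 it was brighter in DRG only.

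There were 12 single-colour Agilent arrays, 1 for each combination of rat type, tissue and side, and each held pooled RNA of 3 female rats aged 8 weeks. These pool sizes are those of the labels, and the paper gives a larger number of animals per group. All rats received MBP84-104, a fragment of myelin basic protein, into the left sciatic nerve, at 50 µg in 5 µL PBS. The nude rats were of the athymic strain Hsd:RH-Foxn1rnu (rnu-/-), which has no working Foxn1 and therefore no thymus in which T cells could mature. They were killed after 7 days. The wild-type rats carry the label Sprague-Dawley and were killed after 12 days according to the labels, whereas the paper names heterozygous rnu+/- rats and the same time after injection for both types. For the nerve, the control was the right sciatic nerve, injected with PBS. For the DRG it was the right DRG. The cord had no opposite side as its control: the left dorsal block of the lumbar enlargement was set against a dorsal block rostral to it. Rat type cannot be told apart from strain and day, nor from slide in the DRG and the cord, because the first slide carried all nude tissues together with wild-type nerve, and the second carried wild-type DRG and cord.

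Macrophages and microglia both depend on the receptor Csf1r and carry the complement receptor subunit Itgam (CD11b), but they arise and live apart. Microglia settle in the brain and spinal cord in the embryo and renew themselves there, whereas nerve and DRG hold resident macrophages that are joined by blood monocytes after injury. In damaged nerve, macrophages clear myelin debris, filling with Cd68-bearing lysosomes, and scavenger receptors such as Msr1 and Mrc1 take up ligands at the cell surface. P2ry12 and Tmem119 are widely used to separate microglia of the central nervous system from other macrophages.

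Levels are given as the log2 spot signal minus the median of all probes of that array, so that 0 is the level of the median probe. The probes differ in brightness for reasons other than RNA amount, and levels were compared only within a gene. Median signals of the arrays ran from 23.5 units on the injected nude nerve, the dimmest array, to 122 units on the rostral wild-type cord, and between 59.5% and 76.9% of spots were well above background. Of the 10 genes, 7 were well above background on all 12 arrays. Arg1 was so on 11 arrays, Msr1 on 7 and Mrc1 on 6. Tissue labels were checked with other cell types: 4 of 4 oligodendrocyte and 4 of 4 astrocyte markers were higher in cord than in nerve, and 5 of 5 Schwann cell markers were lower there. The comparison needed 4 arrays well above background. Mog and Slc1a2, with 6 such arrays each, reached this only through their cord arrays, so these 2 markers are no support for the check. Of the sensory neuron markers, Calca and Prph lay lower in cord than in DRG (-6.56 and -3.77), and Isl1 and Scn10a were not well above background on any cord array. In whole tissue, fewer cells of a type and less RNA per cell cannot be told apart, and this holds for every value below.

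Promoter sequences are shown for 4 genes because 3 of them, Cd68, Mrc1 and Adgre1, followed each other closely over the 12 arrays, while Itgam did not. Pearson's r with Cd68 was 0.98 for Mrc1, 0.97 for Adgre1 and 0.53 for Itgam, over 12 arrays that share animals and tissues. Mrc1 was not well above background in cord, and its values there were set to the lowest well-measured signal of each array. The RefSeq windows (GRCr8) run from 250 bases before to 50 bases after the gene start, written in the direction of the gene: Cd68 at chr10:54882392-54882691 (minus strand), Mrc1 at chr17:82157475-82157774 (plus), Adgre1 at chr9:2329190-2329489 (plus) and Itgam at chr1:192089342-192089641 (plus). Capitals mark GAGGAA, or TTCCTC where it lies on the other strand, a purine-rich core bound by PU.1, the myeloid factor encoded by Spi1.

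Cd68: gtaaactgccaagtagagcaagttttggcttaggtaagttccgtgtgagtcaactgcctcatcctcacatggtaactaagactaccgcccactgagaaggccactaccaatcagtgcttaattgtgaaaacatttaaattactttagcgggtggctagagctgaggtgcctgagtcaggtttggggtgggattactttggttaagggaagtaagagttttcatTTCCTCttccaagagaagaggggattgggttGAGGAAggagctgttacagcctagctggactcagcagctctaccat
Mrc1: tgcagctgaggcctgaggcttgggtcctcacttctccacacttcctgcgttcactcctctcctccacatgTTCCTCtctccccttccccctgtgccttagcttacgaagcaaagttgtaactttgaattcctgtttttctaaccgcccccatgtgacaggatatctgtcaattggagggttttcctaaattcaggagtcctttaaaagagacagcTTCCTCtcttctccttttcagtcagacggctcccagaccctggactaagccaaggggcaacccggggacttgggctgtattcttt
Adgre1: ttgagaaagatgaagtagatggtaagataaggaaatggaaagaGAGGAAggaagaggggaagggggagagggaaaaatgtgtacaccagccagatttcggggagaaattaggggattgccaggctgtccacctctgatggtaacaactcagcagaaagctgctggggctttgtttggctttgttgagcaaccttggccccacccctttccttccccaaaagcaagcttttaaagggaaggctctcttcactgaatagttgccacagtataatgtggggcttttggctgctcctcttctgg
Itgam: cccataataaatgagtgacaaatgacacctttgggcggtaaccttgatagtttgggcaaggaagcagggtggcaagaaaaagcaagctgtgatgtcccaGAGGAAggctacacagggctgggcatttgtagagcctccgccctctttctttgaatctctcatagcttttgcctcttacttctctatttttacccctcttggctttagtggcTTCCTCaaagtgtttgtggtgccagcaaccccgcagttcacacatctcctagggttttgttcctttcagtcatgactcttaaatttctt

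The promoter table held windows for 5 of the 10 genes, the other one being Csf1r. GAGGAA stood in 5 of 5 of them on one strand or the other, against 27.6% of 33469 rat promoters of this length. The longer form GAGGAAGT stood in 0 of 5, against 2.42% of all promoters. Cd68 had matches at 27 bases before the start and 4 bases after it. Both Mrc1 matches were on the opposite strand, at 180 and 35 bases before the start. Adgre1 had 1 match, at 207 bases before the start, and Itgam had matches at 151 and 39 bases before it. These are matches of letters in a window and say nothing of binding.

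The first comparison asked where these genes were most abundant. Nerve led: 9 of the 10 genes were higher in nerve than in DRG, and 8 were lower in cord than in nerve, with none higher in cord. Between cord and DRG the genes parted, with Itgam, Arg1 and P2ry12 higher in cord and Cd68, Mrc1, Adgre1, Msr1 and Tmem119 lower. These counts are of an adjusted p under 0.05 in limma, with tissue and rat type as terms and 4 arrays per tissue, fitted over 11095 genes and adjusted by Benjamini-Hochberg. Over all of these genes, 33.2% were higher and 12.4% lower in nerve than in DRG, 28.8% higher and 36.3% lower in cord than in nerve, and 34.5% higher and 26.0% lower in cord than in DRG. The median difference of all genes was 0.23 for nerve minus DRG, -0.13 for cord minus nerve and 0.12 for cord minus DRG, against medians of 1.68, -1.24 and -0.45 for the 10 genes. Mrc1 and Msr1 reached the 4 well-measured arrays that the fit required only with their nerve arrays, where they were high, so their nerve calls are no support, and 7 of the other 8 genes were higher in nerve than in DRG and 6 lower in cord than in nerve. The 4 arrays of a tissue come from 2 rat types and 2 sides, and the tissues may come from the same animals, so the p-values measure only the spread between these arrays and not between rats. The split over all genes shifted with the scaling. For nerve and DRG it was 3684 higher and 1380 lower here, 2492 and 2094 with the 75th percentile, 2792 and 2041 with quantile normalization, 2378 and 2394 with cyclic loess, and 2873 and 2244 in the authors' values. For cord and nerve, 3190 and 4031 became 4268 and 3335 with cyclic loess, and for cord and DRG, 3833 and 2890 became 3181 and 3617 with the 75th percentile.

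**Figure D1:**
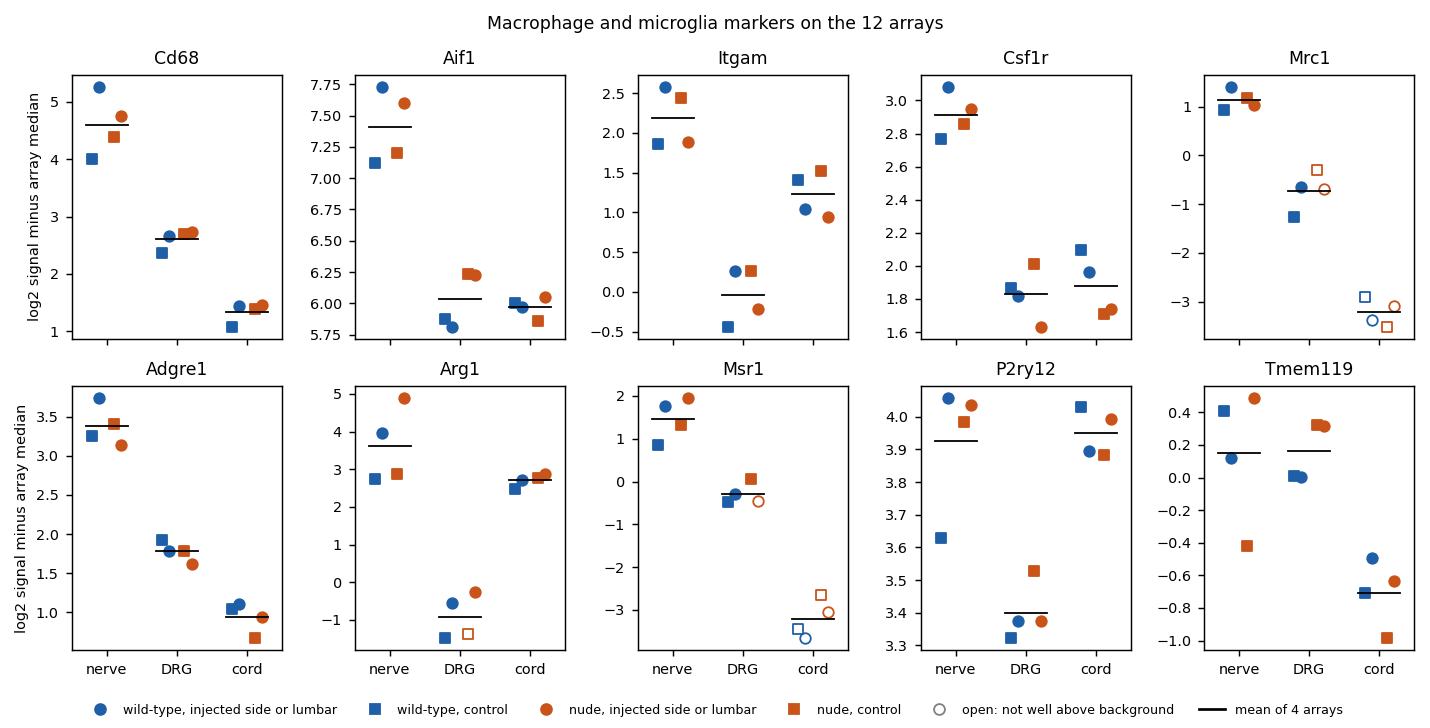
Level of each gene on the 12 arrays, as log2 signal minus the array median (vertical axis, scaled for each gene), by tissue; colours give the rat type, circles the injected side or lumbar cord, squares its control, open symbols a signal not well above background, and lines the mean of 4 arrays. Cd68, Mrc1, Adgre1 and Msr1 step down from nerve to DRG to cord, whereas Arg1 is lowest in DRG and P2ry12 lies at 3.93 in nerve and 3.95 in cord.

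Cd68, a lysosomal glycoprotein of phagocytes, had the steepest gradient among the genes measured everywhere. In the following lists the 4 levels of a tissue are those of the nude injected, nude control, wild-type injected and wild-type control array. Cd68 stood at 4.74, 4.38, 5.26 and 3.99 in nerve, at 2.74, 2.69, 2.66 and 2.36 in DRG, and at 1.46, 1.39, 1.45 and 1.08 in cord. No array of a tissue overlapped with those of another. Mean Cd68 was 3.96-fold higher in nerve than in DRG (log2 difference 1.98, SE 0.23, adjusted p = 2.3e-05) and 9.51-fold lower in cord than in nerve (-3.25, SE 0.23, adjusted p = 8.85e-08). It was 2.40-fold lower in cord than in DRG (adjusted p = 0.000544).

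Adgre1 encodes the F4/80 antigen of tissue macrophages. Its levels were 3.14, 3.41, 3.74 and 3.25 in nerve, 1.62, 1.78, 1.79 and 1.93 in DRG, and 0.94, 0.66, 1.10 and 1.04 in cord. The order was that of Cd68, again without overlap. Adgre1 was 3.05-fold higher in nerve than in DRG (adjusted p = 2.16e-06) and 5.47-fold lower in cord than in nerve (-2.45, SE 0.14, adjusted p = 1.42e-08). Between cord and DRG the difference was -0.84 (SE 0.14, adjusted p = 0.000302). With normexp background correction the cord and DRG values of Cd68 and Adgre1 were no longer called apart (adjusted p = 0.0551 and 0.173).

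Mrc1 encodes the mannose receptor, which binds sugars on debris and microbes and marks resident and alternatively activated macrophages. Mrc1 read 1.03, 1.18, 1.41 and 0.94 in nerve and -0.68, -0.30, -0.66 and -1.27 in DRG, where neither nude array was well above background. On the 4 cord arrays it was never well above background, with readings from -3.52 to -2.91. Mean Mrc1 was 3.65-fold higher in nerve than in DRG (adjusted p = 8.58e-06), with 2 of 4 DRG arrays well above background. Its cord level has only an upper bound, the lowest well-measured signal of each array. Set to that bound, mean Mrc1 was at least 10.6-fold lower in cord than in nerve (adjusted p = 1.14e-08). Against DRG it was 2.92-fold lower (adjusted p = 2.85e-05), which is no strict bound because 2 DRG arrays were not well above background. Every cord value behind these p-values is a set one. Mrc1 entered the fit only with its nerve arrays, so its nerve calls are no support.

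Msr1, a class A scavenger receptor for modified lipoproteins, behaved alike. It stood at 1.95, 1.32, 1.77 and 0.85 in nerve and at -0.45, 0.07, -0.29 and -0.47 in DRG, where the injected nude array was not well above background. It was not well above background on any cord array, with readings from -3.67 to -2.66. Msr1 was 3.39-fold higher in nerve than in DRG (adjusted p = 3.81e-05, 3 of 4 DRG arrays measured). With cord set to its upper bound, Msr1 was at least 13.4-fold lower there than in nerve (adjusted p = 1.42e-08). Against DRG it was 3.96-fold lower (adjusted p = 9.75e-06), no strict bound because the injected nude DRG was not well above background. Here too every cord value is a set one, and the nerve calls are no support, as for Mrc1.

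Among genes shared by macrophages and microglia, Aif1, which encodes the calcium-binding protein IBA1, was high in nerve and level between DRG and cord. Its levels were 7.60, 7.20, 7.73 and 7.12 in nerve, 6.22, 6.23, 5.81 and 5.88 in DRG, and 6.05, 5.86, 5.97 and 6.00 in cord. Aif1 was 2.59-fold higher in nerve than in DRG (adjusted p = 3.17e-05) and 2.71-fold lower in cord than in nerve (adjusted p = 7.91e-06). Cord and DRG overlapped, and their difference of -0.06 was not called (95% interval -0.43 to 0.30, adjusted p = 0.753).

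Csf1r, the receptor for the growth factors CSF1 and IL-34, had the same order. It stood at 2.95, 2.86, 3.08 and 2.77 in nerve, at 1.63, 2.01, 1.82 and 1.87 in DRG and at 1.74, 1.71, 1.97 and 2.09 in cord. Nerve was 2.12-fold above DRG (adjusted p = 4.66e-05) and cord 2.05-fold below nerve (adjusted p = 2.67e-05). The cord minus DRG difference was 0.05 (95% interval -0.25 to 0.35, adjusted p = 0.786), and neither order of the pair was called.

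Itgam, which pairs with Itgb2 to form complement receptor 3, was the exception in this group, since cord stood between nerve and DRG. Nerve levels were 1.88, 2.43, 2.58 and 1.85, DRG levels -0.21, 0.26, 0.26 and -0.44, and cord levels 0.94, 1.52, 1.05 and 1.41. The 3 tissues did not overlap. Itgam was 4.67-fold higher in nerve than in DRG (2.22, SE 0.23, adjusted p = 9.08e-06) and 2.40-fold higher in cord than in DRG (1.27, SE 0.23, adjusted p = 0.000546). The cord level was 1.94-fold below nerve (adjusted p = 0.00293), a call that was lost with normexp (adjusted p = 0.114) and on the nude arrays alone (adjusted p = 0.0667).

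Arg1, arginase 1, removes arginine in the urea cycle and is a classic mark of alternatively activated macrophages in rodents. It had the widest range of the 10 genes. Nerve levels were 4.89, 2.88, 3.96 and 2.74, DRG levels -0.27, -1.37, -0.54 and -1.49, and cord levels 2.88, 2.77, 2.71 and 2.49, with the nude control DRG not well above background. DRG lay far below the other tissues, whose arrays overlapped. With that array raised to its floor of -0.89, Arg1 was at least 21.3-fold higher in nerve than in DRG (4.41, SE 0.39, adjusted p = 2.29e-06) and at least 11.4-fold higher in cord than in DRG (3.51, SE 0.39, adjusted p = 1.18e-05). Cord minus nerve was -0.91 (95% interval -1.77 to -0.05, adjusted p = 0.0604), and it was called with a term for the side of injection within each tissue (adjusted p = 0.000487) or a block of rat type and side (adjusted p = 0.0145). Of 5 other genes of arginine metabolism tested, Asl (0.67) and Oat (0.79) were higher in nerve than in DRG, Arg2 (-2.32 or lower) and Ass1 (-1.31) were lower, and Odc1 gave 0.45, which was not called. The Ass1 value is no strict bound, because neither nude DRG array nor any nerve array was well above background for it.

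The 2 microglial markers were not higher in cord than in nerve. P2ry12 is the ADP receptor by which microglia sense damage. Its levels were 4.03, 3.98, 4.06 and 3.63 in nerve, 3.37, 3.53, 3.37 and 3.32 in DRG, and 3.99, 3.88, 3.89 and 4.03 in cord. Nerve and cord overlapped, with a difference of 0.02 (95% interval -0.26 to 0.31, adjusted p = 0.884). P2ry12 was 1.47-fold higher in cord than in DRG (adjusted p = 0.00307) and 1.44-fold higher in nerve than in DRG (adjusted p = 0.0056). The nerve and DRG call was lost with cyclic loess, normexp, the 75th percentile, the authors' values and quantile normalization, with adjusted p between 0.0953 and 0.252. It was also lost on slide 1 (0.157), the nude (0.169), the wild-type (0.106) and the control arrays (0.226) taken alone. The cord and DRG call was lost on the control arrays alone (adjusted p = 0.0903) and on the nude arrays alone (adjusted p = 0.169).

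Tmem119, a membrane protein of microglia, depended on the probe. Its brighter probe, a single spot, gave 0.49, -0.42, 0.12 and 0.41 in nerve, 0.31, 0.32, 0.00 and 0.01 in DRG, and -0.63, -0.99, -0.49 and -0.71 in cord. On this probe cord was 1.81-fold below nerve (adjusted p = 0.0026) and 1.82-fold below DRG (adjusted p = 0.00295), while nerve minus DRG was -0.01 (95% interval -0.45 to 0.43, adjusted p = 0.973). The other probe, printed on 10 spots, gave 0.54, 0.06, 0.68 and 0.16 in nerve, -0.17, -1.62, -1.32 and -1.98 in DRG, and -0.12, 0.14, 0.01 and 0.33 in cord, with neither control DRG well above background. It put cord 1.12 above DRG (adjusted p = 0.00371), nerve 1.39 above DRG (adjusted p = 0.00126) and cord 0.27 below nerve, which was not called (adjusted p = 0.401). The direction of Tmem119 between cord and DRG turned with the probe, and on the nude arrays alone the brighter probe no longer called cord below nerve (adjusted p = 0.0942).

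The other 2-probe genes were compared in the same way. The dimmer Aif1 probe also placed nerve above DRG, by 2.09, and cord below nerve, by -1.71. Between cord and DRG it gave 0.38 (adjusted p = 0.0943). The dimmer Csf1r probe placed cord below nerve by -1.05, as the brighter one did, but it put cord below DRG by -0.63 (adjusted p = 0.00477), and its nerve minus DRG difference of 0.42 missed the threshold (adjusted p = 0.0508).

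**Figure D2:**
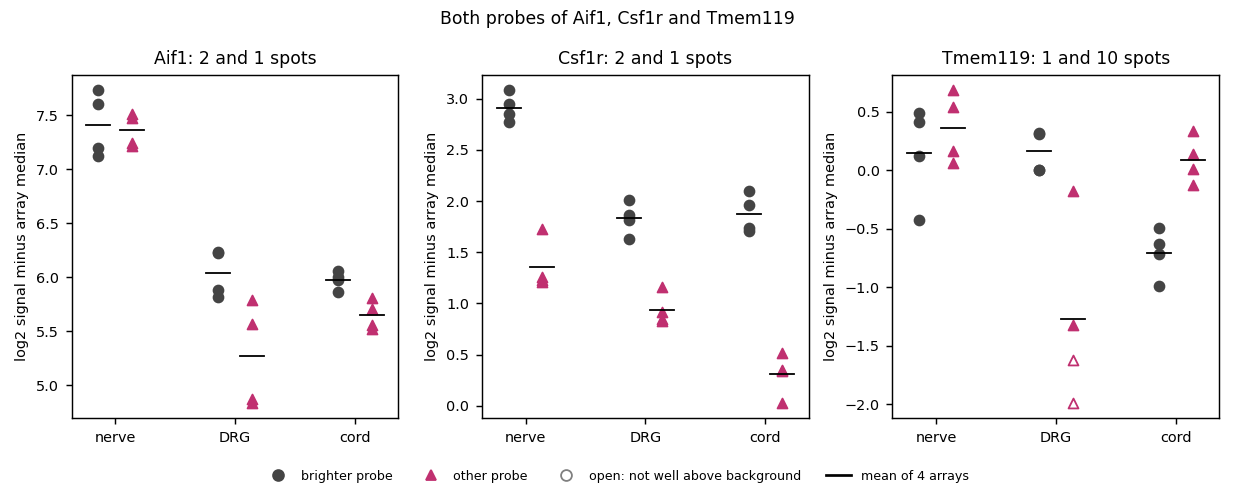
Levels of both probes of Aif1, Csf1r and Tmem119 in each tissue, as log2 signal minus the array median (vertical axis); each symbol is 1 array, open symbols are not well above background, and lines are means of 4 arrays. The probes of Tmem119 part in DRG, with means of 0.16 and -1.27, and in cord, with means of -0.71 and 0.09.

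Across all tissue comparisons, the arrays of the tissues did not overlap for 9 of 10 genes between nerve and DRG, 8 between cord and nerve and 8 between cord and DRG. Over all genes tested these shares were 39.0%, 58.1% and 63.3%. Mrc1 and Msr1 are among the counted genes in each comparison. They entered the fit only with their nerve arrays, so their separation from nerve is no support. All their cord values are set ones.

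**Figure D3:**
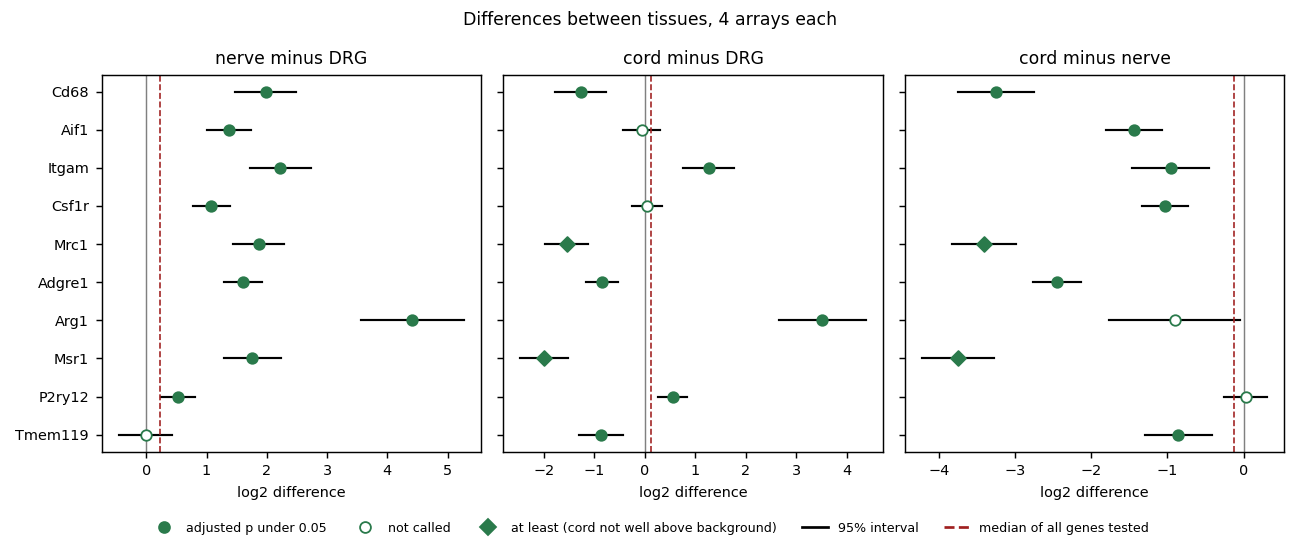
Difference between tissues in log2 signal (horizontal axis) for each gene, with its 95% interval from limma over 4 arrays per tissue. Filled symbols were called, diamonds have their cord level set to its upper bound, and the dashed line is the median of all genes tested. In nerve minus DRG, 9 genes lie to the right of the dashed line, and Arg1 lies farthest at 4.41.

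Wider marker lists, also chosen with earlier results of these data known, gave the setting. Of 18 further genes common to myeloid cells, 17 were higher in nerve than in DRG and 16 were lower in cord than in nerve, with medians of 1.72 and -1.95. Fcgr3a, an Fc receptor chain, was the 1 gene called higher in cord (1.10). All 7 measured markers of resident macrophages were lower in cord than in nerve, among them the haemoglobin scavenger receptor Cd163 (-4.54) and the folate receptor Folr2 (-4.48), with a median of -4.01. All 6 tested scavenger receptors, Cd163 again among them, were lower too, including the fatty acid receptor Cd36 (-4.82). Of 8 microglia-enriched genes, the transcription factor Sall1 was well above background on the 4 cord arrays alone, so that its call was fixed by the filter. Of the other 7, the fructose transporter Slc2a5 (1.92) was called higher in cord than in nerve. Olfml3 (-3.42), the lipid-sensing receptor Trem2 (-1.91) and P2ry13 (-1.42) were called lower, while Cx3cr1 and Gpr34 were not called and gave -0.18 and -0.03. Against DRG, 4 of these 7 were higher in cord and 1 was lower, where 34.5% and 26.0% of all genes were. Over all genes, 33.2% were called higher in nerve than in DRG. For cord against nerve, 28.8% were higher and 36.3% lower.

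The second comparison set each injected nerve against the opposite nerve. It had 1 array per condition, so these values have no replicate check and no test. Of the 10 genes, 9 had the higher level in the injected wild-type nerve, at a median log2 ratio of 0.55 against -0.05 for all 10213 genes measured. For nude nerve the number was 7, at a median of 0.23 against -0.38, and 9 of 10 lay above the all-gene median in each rat type. At least 2-fold higher were 2 genes in wild-type nerve, Cd68 and Arg1, where 4.68% of all genes passed that ratio, and 1 gene in nude nerve, Arg1, where 7.52% did. None was 2-fold lower, against 4.08% and 13.5% of all genes.

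Arg1 had the largest ratio in nude nerve and the second largest in wild-type nerve. Its signal was 561 units in the injected and 221 units in the control nerve of wild-type rats, a 2.33-fold difference after centring (log2 ratio 1.22). In nude rats it was 456 and 360 units on arrays of unequal brightness, which made 4.04-fold after centring (2.02), above 99.1% of genes. Cd68 read 1386 and 527 units in wild-type nerve (2.41-fold, 1.27) and 411 and 1023 units in nude nerve (1.28-fold, 0.36). Msr1 was 1.89-fold higher in wild-type and 1.55-fold higher in nude nerve.

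Among the shared markers, Aif1 had log2 ratios of 0.61 in wild-type and 0.40 in nude nerve, and Csf1r 0.32 and 0.09. The other probe gave 0.24 and -0.30 for Aif1, which turned the nude direction, and 0.04 and 0.50 for Csf1r. Itgam, Mrc1 and Adgre1 had positive ratios in wild-type nerve, of 0.73, 0.47 and 0.49, and negative ones in nude nerve, of -0.55, -0.15 and -0.27. Set against the all-gene median of its own comparison, only Itgam of the 10 genes lay below it in nude nerve, by -0.17, and only Tmem119 in wild-type nerve, by -0.24. P2ry12 gave 0.43 and 0.05. Tmem119 gave -0.29 in wild-type and 0.91 in nude nerve on the brighter probe, and 0.52 and 0.47 on the other.

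The nude nerve values rest on a pair of arrays whose medians were 23.5 and 83.9 units, and the injected one had the lowest share of spots well above background, 59.5%. With normexp the nude median fell below 0, at -0.68, and Cd68 (-0.69), Aif1 (-0.74), Csf1r (-0.67), Msr1 (-0.11) and P2ry12 (-0.87) turned below 0 while Arg1 stayed above it (0.81). The 75th percentile gave a median of 0.52. The wild-type median stayed between 0.48 and 0.63 under the 10 alternatives run.

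**Figure D4:**
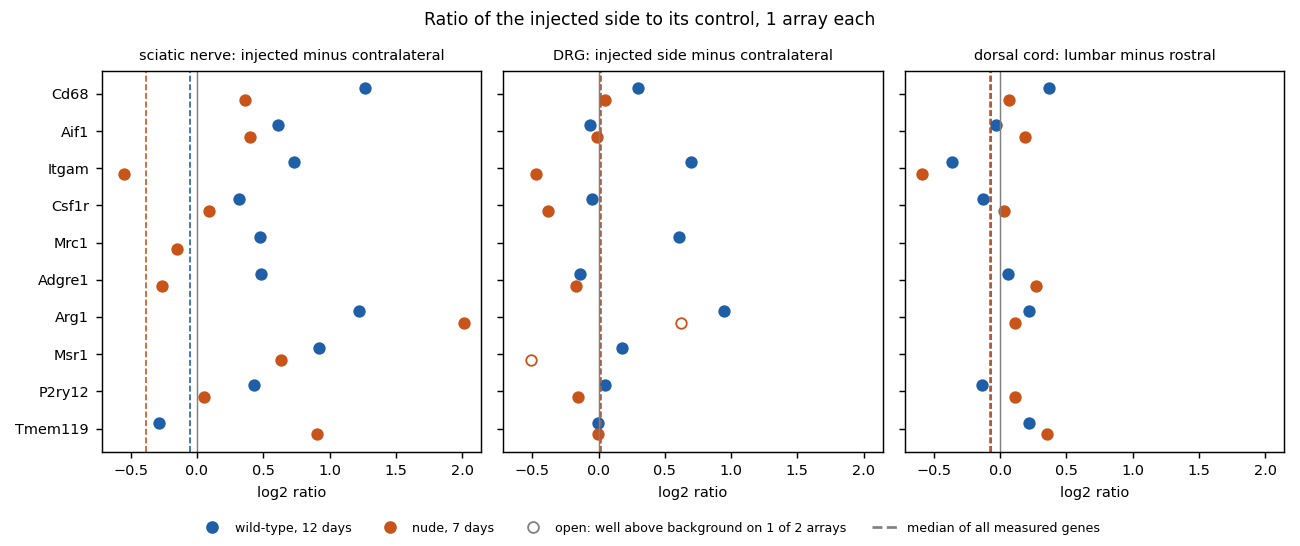
Log2 ratio of the injected side to its control (horizontal axis) for each gene, in nerve, DRG and cord, with 1 array per condition and therefore no error bars; colours give the rat type, open symbols are genes well above background on 1 of the 2 arrays, and dashed lines are the medians of all measured genes. In the nerve, 9 genes of each rat type lie to the right of their dashed line, and Arg1 in nude nerve reaches 2.02.

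Other genes of the same cells were compared over the same arrays. In wild-type nerve all 18 measured myeloid genes exceeded the opposite side, 9 of them at least 2-fold, including the Fc receptor genes Fcgr3a (1.79) and Fcgr2b (1.42) and Itgb2 (1.35), with a median of 0.99. In nude nerve 12 of 17 were higher and none passed 2-fold, with a median of 0.28. Of 12 lysosome and lipid-handling genes of phagocytes, 9 were higher in wild-type nerve and 5 passed 2-fold, led by Gpnmb (2.76 in wild-type, 1.44 in nude), legumain (Lgmn, 1.51 and 0.57) and galectin 3 (Lgals3, 1.42 and 0.52). Lipoprotein lipase, Lpl, was at least 2-fold lower in both (-1.57 and -1.92). Trem2 gave 1.81 and 1.58. Over all genes measured, 4.68% were at least 2-fold higher in wild-type nerve and 7.52% in nude nerve.

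Ligands and recruiting signals differed from gene to gene. Ccl2, the main chemokine for monocytes, had a log2 ratio of 2.36 in wild-type and 2.15 in nude nerve. Ccl7 gave 1.03 and 0.54. Csf1 and Il34, the ligands of Csf1r, gave -0.39 and -0.02 in wild-type nerve and -0.56 and -0.46 in nude nerve. The monocyte receptor Ccr2 was at 0.35 and -1.10. Among genes linked with alternative activation, Clec7a (2.26 and 1.72) and Ccl17 (2.12 and 1.33) passed 2-fold in both rat types, and the list medians were -0.005 over 7 genes and 0.32 over 6. Of the genes linked with classical activation, Nos2 gave 0.55 and 1.42, Il1b 0.75 and -0.18, and Tnf -0.24 and -0.21. In wild-type nerve alone Il6 could be measured, at a ratio of at least 1.16, the 1 gene of this list past 2-fold there, and Cd86 at least 0.26. In the arginine pathway, Oat and Odc1 gave -1.18 and -1.19 in nude nerve and -0.38 and -0.78 in wild-type nerve.

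Resident macrophage markers were mixed. Siglec1 (1.60 and 0.86) and Pf4 (1.11 and 0.81) were higher on the injected side, whereas Lyve1 (-0.79 and -1.38) and F13a1 (-0.96 and -1.28) were lower. Over the 7 measured genes the median was 0.64 in wild-type and -0.13 in nude nerve.

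Markers of other cell types differed between the same nerves, and their part in the ratios above was not tested. The summed level of 5 Schwann cell markers was 1777 on the injected and 2997 on the control wild-type nerve, and 1625 and 3211 in nude nerve, in multiples of the array median, although 1 of the 5, Ngfr, was higher on the injected side (1.63 and 0.71). That of the adipocyte markers was 46.3 against 204 in wild-type and 45.6 against 253 in nude nerve. Neutrophil markers summed to 12.4 and 1.76 in wild-type nerve, with 4 and 1 of 6 genes well above background. In nude nerve 2 of these genes were measured on both sides, with S100a8 at 2.67 and S100a9 at 2.23. Both markers of red blood cells, Hbb and Alas2, were at least 2-fold higher on the injected side in both rat types (Hbb 1.94 and 2.98). Skeletal muscle markers summed to 26.6 and 10.8 in wild-type and to 5.32 and 8.05 in nude nerve. Of 8 T cell markers, 4 and 3 were well above background in wild-type nerve and 2 and 3 in nude nerve. The 3 genes of cell division were all at least 2-fold higher in injected wild-type nerve, with Cdk1 at 2.16 there and 1.76 in nude nerve.

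In DRG the same comparison gave smaller ratios. In wild-type rats, 6 of 10 genes were higher on the injected side and 4 lower, with a median of 0.12 against 0.01 for all genes. None reached 2-fold, which 0.489% of all genes did. Arg1 came closest, with 39.6 and 13.4 units (log2 ratio 0.95), followed by Itgam (0.70) and Mrc1 (0.61). In nude DRG 9 genes could be measured, with 2 higher, 7 lower and a median of -0.15. Again none passed 2-fold, against 0.682% of all genes. The nude count depended on the probe. On their other probes Aif1 (0.22), Csf1r (0.34) and Tmem119 (at least 0.72) were higher on the injected side, and the median was 0.05. Arg1 was at least 1.54-fold higher in nude DRG, since its control was not well above background. Itgam stood at -0.47 and Csf1r at -0.38 on its brighter probe. Msr1 was 1.43-fold lower, which is no strict bound although its injected side was not well above background. The authors' values put Arg1 past 2-fold in both DRG pairs. With normexp the wild-type DRG ratios fell to 0.18 for Arg1, 0.30 for Itgam and 0.05 for Mrc1. In the wild-type control DRG, Arg1 (13.4 units) and Mrc1 (15.7 units) lay near the lowest well-measured signal of that array, 11.4 units. Neutrophil markers summed to 207 on the injected and 56.1 on the control nude DRG, with S100a8 at 2.02, while wild-type DRG gave 70.6 and 71.8, and this was not tested against the macrophage genes.

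In the cord, the lumbar block was compared with the rostral one, and Mrc1 and Msr1 had no measurable ratio. Of the 8 remaining genes 4 were higher and 4 lower in wild-type cord (median 0.01, all genes -0.07), and 7 were higher and 1 lower in nude cord (median 0.11, all genes -0.07). The nude count depended on the probe. On their other probes Aif1 (-0.24), Csf1r (-0.48) and Tmem119 (-0.26) were lower in nude cord, and the median was -0.09. No gene passed 2-fold in either direction, where 0.913% and 0.776% of all genes were higher and 0.831% and 0.589% lower. Itgam had the lowest ratio in both rat types, at -0.37 and -0.59, and it stood at percentile 3.8 of the measured genes in nude cord. Cd68 gave 0.37 and 0.07, P2ry12 -0.14 and 0.11, and Aif1 -0.03 and 0.19. Schwann cell markers summed to 369 in lumbar and 69.4 in rostral wild-type cord and to 299 and 82.5 in nude cord, and their part in the cord ratios was not tested.

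The control tissues were also set against each other between rat types. In nerve, the nude control exceeded the wild-type control by 0.39 for Cd68, 0.58 for Itgam and 0.47 for Msr1, and the difference was -0.83 for Tmem119. The median over all genes was 0.23 in nerve, 0.006 in DRG and -0.004 in cord. The other Tmem119 probe, printed on 10 spots, read 0.06 in nude and 0.16 in wild-type control nerve. In DRG the largest gap among 8 measured genes, which left out Mrc1 and Arg1, was 0.70 for Itgam. In cord, where Mrc1 and Msr1 were left out, it was -0.38 for Csf1r and Adgre1. The other Csf1r probe read 0.51 in nude and 0.34 in wild-type control cord. None of the genes measured reached 2-fold, which 3.25% of all genes did in nerve, 2.85% in DRG and 0.752% in cord. Strain, day and, for DRG and cord, slide cannot be told apart from rat type here.

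Genes whose levels most resembled each marker were named from Pearson's r over the 12 arrays, which mostly reflects the tissue and carries no test. Aif1 was most like Tyrobp (0.99) and Fcer1g (0.99), signalling adaptors of myeloid cells, and P2ry12 like Gpr34 (0.98), from the microglia-enriched list. Cd68 ran with the tumour necrosis factor receptor Tnfrsf1b (0.995), Msr1 with the phosphatase Ptpn22 (0.995), and Adgre1 with Ms4a6bl1 (0.995). Mrc1 was closest to Igfbp7 (0.994), Arg1 to Sertad4 (0.979), Csf1r to Ptpro (0.980), Itgam to Nnt (0.988) and Tmem119 to Zfp395 (0.950). Among the 10 genes themselves, Cd68, Mrc1, Msr1 and Adgre1 correlated with each other at 0.94 or above, and Arg1 was most like P2ry12 (0.91) and Itgam (0.88). Signals below the floor of an array were raised to it for these r, so Mrc1 and Msr1 shared the same set values on every cord array. The r of both genes rests in part on these values.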

How the data were processed

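Cy3-labelled total RNA was measured on 12 Agilent SurePrint G3 Rat GE arrays. For the intensity values, the authors scanned the slides and Feature Extraction (version 10.7.3.1 per the file headers, 10.5 in the submitters' processing notes) subtracted background. The other values are the deposited flags for outlying and well-above-background spots. The log2 levels were computed from the scanner signals. The authors' normalized log2 table served only as the alternative called the authors' values. Its sorted columns differ by at most 0.282, with column medians of 5.27 and correlations with the scanner values of at least 0.994. How that table was normalized between arrays stays unknown.

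Each array had 58717 non-control spots. Outlier spots were left out, log2 signals of a probe's spots averaged and the array median subtracted. Signals below the lowest well-above-background signal of an array were set to it in the tissue fit, in the correlations and in bounds. A gene took its brightest probe, and accessions were matched to RefSeq (GRCr8).

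The tissue fit took genes well above background on at least 4 arrays, in limma 3.58.1 (R 4.3.3), with tissue and rat type as terms and Benjamini-Hochberg adjusted p under 0.05. The fit was tested on simulated data. Side ratios needed a gene well above background on 1 array of the pair, with a 2-fold threshold and no test. The named genes were the 10 markers, up to 3 genes most like each, and list members by size of ratio or role. The markers and lists were chosen with earlier results of these data known. Alternatives were other scalings, normexp with an offset of 50 on median spot signals, the authors' values, other filters, probes, thresholds, designs and tests, and leaving out each array. The other probe of 2-probe genes and a block of rat type and side were added after seeing the data. Python 3.11.15 with pandas 2.3.3, numpy 2.4.6, scipy 1.17.1 and matplotlib 3.10.9 did the rest.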

Additional observations from a re-analysis of the deposited data

Results flagged for a closer look

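In nerve, P2ry12 on the wild-type control array (3.63) stood apart from the other 3 nerve arrays, with a gap to the nearest of them of 0.83 of the range of the 4. Of 25 sets of 4 arrays tested this was the 1 found, and chance alone gives about 1 in 20.

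Several genes had ratios of opposite sign in wild-type and nude rats, each from 1 array per condition, and these differences were not tested. In nerve they were Itgam (0.73 and -0.55), Mrc1 (0.47 and -0.15), Adgre1 (0.49 and -0.27) and Tmem119 (-0.29 and 0.91). The sign of Adgre1 in nude nerve turned to 0.03 with the 75th percentile, 0.07 with quantile normalization and 0.07 in the authors' values, and that of Mrc1 turned to 0.14 with the 75th percentile. On the other probe Tmem119 had 0.52 and 0.47. In DRG they were Itgam (0.70 and -0.47) and P2ry12 (0.05 and -0.15), whose nude value turned to 0.05 with normexp. In cord they were Aif1 (-0.03 and 0.19), Csf1r (-0.13 and 0.031) and P2ry12 (-0.14 and 0.11), and the wild-type value of Aif1 turned positive with the 75th percentile, quantile normalization, cyclic loess and the authors' values. On the other probe the cord values were 0.18 and -0.24 for Aif1 and 0.01 and -0.48 for Csf1r.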

How the results depend on the processing

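The counts of the 10 genes called between tissues kept within 1.5 times under the alternatives run, except that normexp left 3 in place of 5 lower in cord than in DRG, and the methods' t-test gave the same 8, 8 and 9 calls before and after Benjamini-Hochberg adjustment. Without each array in turn, between 8 and 9 genes were lower in cord than in nerve, and the counts against DRG stayed at 3, 5 and 9. Over all genes, counts moved more. For cord above nerve, 3190 became 1962 on slide 1 alone and 1859 on the nude arrays alone. For cord below nerve, 4031 became 2521 with normexp and 2636 on the nude arrays. For cord above DRG, 3833 became 1951 on slide 1 and 1745 on the nude arrays, and for cord below DRG 2890 became 1660 with normexp, 1644 on slide 1 and 1577 on the nude arrays. For nerve above DRG, 3684 became 2378 with cyclic loess, 1498 with normexp, 1349 on slide 1, 1123 on the nude and 2359 on the wild-type arrays. For nerve below DRG, 1380 became 2094 with the 75th percentile, 2394 with cyclic loess, 866 with normexp, 2244 in the authors' values, 652 on slide 1 and 607 on the nude arrays. The share of higher calls also moved by over 10 points with normexp, to 3472 of 5993 for cord against nerve and 4153 of 5813 for cord against DRG.

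Directions turned for Tmem119, Csf1r and Aif1 with the choice of probe. For cord minus DRG, Tmem119 gave 0.13 as the mean over its probes and 1.12 on the other probe, and Csf1r gave -0.63 on the other probe. For nerve minus DRG, Tmem119 gave 0.69 as the mean and 1.39 on the other probe. The untested ratios of Aif1 turned from 0.40 to -0.30 in nude nerve, from 0.19 to -0.24 in nude cord and from -0.01 to 0.22 in nude DRG. Those of Csf1r turned from 0.03 to -0.48 in nude cord and from -0.38 to 0.34 in nude DRG. With the other probes, the median turned from 0.11 to -0.09 in nude cord and from -0.15 to 0.05 in nude DRG. The nude nerve median of 0.23 became 0.52 with the 75th percentile and -0.68 with normexp. Its count past 2-fold became 2 with the 75th percentile, 0 with normexp and 3 at a 1.5-fold threshold, and normexp put 1 gene 2-fold lower. In wild-type nerve the count was 5 at 1.5-fold and 0 at 3-fold. In wild-type DRG it was 1 with quantile normalization, 1 in the authors' values and 3 at 1.5-fold. In nude DRG it was 1 in the authors' values, 1 without a floor and 1 at 1.5-fold, and in nude cord 1 gene was lower at 1.5-fold. The causes were not tested. A block for each rat type and side, added after seeing the data, called Arg1 lower in cord than in nerve, which made 9 genes, and changed no other call of the 10 genes. For the ratios of the sides, no paired analysis was possible because each condition has 1 array and the labels carry no replicate numbers.

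With 1 array per condition, no ratio of sides has an error, and the number of arrays limits every comparison. Mrc1 and Msr1 in cord lie under the level at which these arrays measure a probe.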
